A study of Mus musculus with 12 samples.

Results

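Fatty acid oxidation genes and targets of the peroxisome proliferator-activated receptors (PPARs) were read in mouse islets with and without overexpressed sorcin. The set was chosen by gene name: every probe of the arrays whose symbol, old or updated, was one of 30 listed names. Because Adfp is the older symbol of Plin2, these names stand for 29 genes of 30979 gene names on the arrays, and they matched 54 of 45281 probes. Dci is given here under its updated symbol, Eci1. A probe was kept where it lay above the negative control beads (detection p under 0.05) on at least 6 of 12 arrays, which left 37 member probes of 25 genes, 30 of them detected on all 12 arrays. Of the 17 other member probes, 8 were detected on 0 arrays and 9 on 1 to 4 arrays. Of the 4 genes without a kept probe, Ppara and Cd36 were detected on 0 arrays and Hadha on 1 array, each by its only probe. Cpt1b was detected on 1 and on 4 arrays by its probes. An undetected probe does not show that the transcript is absent: Ppard, Cpt1a, Pdk4 and Angptl4 each had 1 kept probe and 1 detected on 0 arrays. Slc25a20 and Pparg also had a probe detected on 0 arrays beside a kept one.

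RNA came from islets of 8-week-old male C57BL/6 mice, 6 littermate controls and 6 SRI-tg10 mice, each hybridised to an Illumina bead array of its own. SRI-tg10 animals carried 10 copies of a tetracycline-inducible SRI (sorcin) transgene that also expresses luciferase, with its transactivator under the rat insulin promoter. Both groups ate a 60% fat diet and drank doxycycline at 500 mg/L for 4 weeks, starting when they were 4 weeks old, so no array shows islets without the diet or the drug. The growth label describes the double transgenic line for every sample, and the labels do not say which of its parts the controls carried. The tissue label reads islets and the source name reads pancreatic beta cells. Sample titles start with A or B, called the title letter here, with 3 mice of each group under each, and the labels do not explain it.

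Between 16271 and 20094 probes were detected per array, fewest on control replicate 5. The overexpressed gene Sri, which encodes a calcium-binding protein, checks the group labels. Its normalized log2 level averaged 9.86 (SD 0.22) over the 6 controls and 14.53 (SD 0.89) over the 6 SRI-tg10 arrays, a difference of 4.67 ± 0.33 (SE; limma adjusted p = 1.53e-05). SRI-tg10 replicate 4 had the lowest Sri level of its group, 12.72, against 14.81 to 14.96 on the other SRI-tg10 arrays. Values without control replicate 5 or SRI-tg10 replicate 4 are therefore given beside the member differences that turn on them. The beta cell markers Ins1 (14.93 ± 0.23 in controls, SD, n = 6) and Ins2 (14.78 ± 0.17, SD, n = 6) were bright on every array. Acinar markers of the exocrine pancreas were bright as well, with Cela3b at 14.96 ± 0.14 (SD, n = 6) in controls, so the material was not beta cells alone. In such bulk RNA, fewer cells of a type and less RNA per cell cannot be told apart.

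Beta-oxidation shortens fatty acids in mitochondria and peroxisomes. Acyl groups enter mitochondria through the carnitine shuttle, and each round of the cycle then uses a dehydrogenase, a hydratase, a second dehydrogenase and a thiolase. PPARs are nuclear receptors that are activated by fatty acids and raise transcription of many of these genes, together with the coactivator PGC-1α, encoded by Ppargc1a. In beta cells fatty acid oxidation competes with glucose oxidation, and prolonged exposure to fatty acids is known to raise Cpt1a, Pdk4, Angptl4 and Plin2.

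PPARs bind DNA together with retinoid X receptors at a pair of AGGTCA hexamers with a single base between them. RefSeq start sites (GRCm38.p6) were at hand for 25 of the 29 genes, in 28 windows of the 250 bases before the start. The hexamer AGGTCA, on either strand, was found in 7 of these 28 windows (25%), against 14% of all 32851 windows. The windows with a match belong to Acadm, Acadvl, Cd36, Cpt1a, Plin2 and Pparg. The full pair, AGGTCANAGGTCA, was found in 0 of the 28 member windows and in 11 of all windows (0.0335%). These matches are descriptions of the letters, not binding sites. The windows of Acads, the member with the smallest p between groups, and of Acadm, Cpt1a and Plin2, whose levels are described below, are shown 5′ to 3′ in the direction of transcription, with the hexamer in capitals (TGACCT is AGGTCA on the other strand). They were picked after the values and matches were seen.
Acads, chr5:115119347-115119596, minus strand: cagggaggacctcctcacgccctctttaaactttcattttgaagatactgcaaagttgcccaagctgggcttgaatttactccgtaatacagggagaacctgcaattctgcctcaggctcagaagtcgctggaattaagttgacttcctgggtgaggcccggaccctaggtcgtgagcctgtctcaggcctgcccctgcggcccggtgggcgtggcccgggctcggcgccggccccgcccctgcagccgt
Acadm, chr3:153944644-153944893, minus strand: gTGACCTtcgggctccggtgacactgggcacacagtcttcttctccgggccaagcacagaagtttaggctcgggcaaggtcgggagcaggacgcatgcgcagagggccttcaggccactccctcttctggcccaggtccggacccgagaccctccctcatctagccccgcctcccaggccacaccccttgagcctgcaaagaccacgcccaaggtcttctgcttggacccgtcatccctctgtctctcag
Cpt1a, chr19:3323051-3323300, plus strand: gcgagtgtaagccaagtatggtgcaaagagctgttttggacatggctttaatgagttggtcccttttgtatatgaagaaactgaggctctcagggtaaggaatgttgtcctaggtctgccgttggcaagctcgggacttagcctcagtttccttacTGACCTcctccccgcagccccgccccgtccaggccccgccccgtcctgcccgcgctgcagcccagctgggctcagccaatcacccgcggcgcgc
Plin2, chr4:86670060-86670309, minus strand: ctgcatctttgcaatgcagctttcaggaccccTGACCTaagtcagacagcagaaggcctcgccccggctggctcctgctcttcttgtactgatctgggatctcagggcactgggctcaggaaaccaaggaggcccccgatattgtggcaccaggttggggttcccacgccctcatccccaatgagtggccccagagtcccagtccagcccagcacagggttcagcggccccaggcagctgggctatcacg

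The first comparison asks how sorcin overexpression changed this programme under the high fat diet. No member probe passed the threshold. Of the 37 kept probes, 0 had an adjusted p under 0.05 with limma (background over all 18315 kept probes, 0.0218%), and the members' adjusted p-values ran from 0.922 to 0.992. At an unadjusted p under 0.05 there was 1 of 37 (2.7%; background 4.26%), a probe of Acads. The differences were split between directions, with 21 probes higher and 16 lower in SRI-tg10 islets, and by the brightest probe of each gene 11 genes higher and 14 lower. Their median was 0.03 log2 by probe and -0.03 by gene, beside -0.0036 over all kept probes. The median size of a member's difference was 0.136 log2, beside 0.135 over all kept probes. The differences ran from -0.35 for Acot2 to 0.41 for Ppard, and 34 of 37 were under 0.3 in size.

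The intervals set how large a change in normalized level the 12 arrays could have missed. The 95% interval lay within 1 log2 unit of 0, a 2-fold change, for 35 of 37 probes. The exceptions were Angptl4, whose interval ran from -1.08 to 0.66, and a probe of Hadh, from -0.67 to 1.18. The levels carry an offset of 16, so for dim probes these intervals do not bound the change in transcript. Such probes include those of Ucp2 and one of Acads, detected on 6 arrays each, Ehhadh on 7 and Cpt1a on 9. For 0 of 37 probes were the 2 groups free of overlap (background 0.169%). All 6 SRI-tg10 arrays lay above the control mean for 3 probes, those of Acads, Ppard and Acaa1a, and all 6 lay below it for 0. These counts against the control mean were not made over all kept probes, so they have no background here. Without control replicate 5 the difference changed sign for 5 of 37 probes, with 22 then higher and 15 lower, and without SRI-tg10 replicate 4 for 4, with 17 higher and 20 lower.

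**Figure D1:**
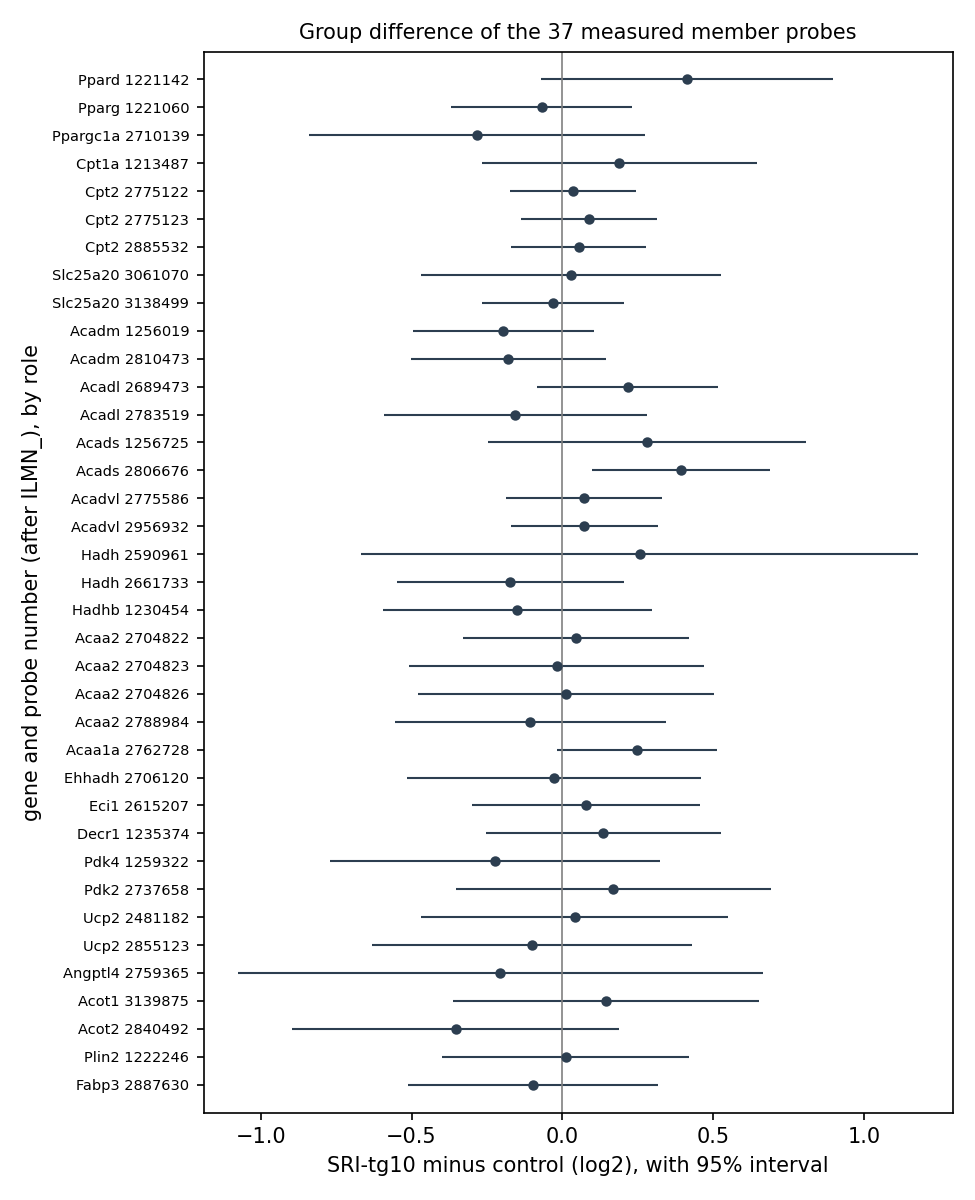
Difference in log2 level between SRI-tg10 and control islets for the 37 kept member probes, grouped by role, with points for the limma estimate and lines for its 95% interval. Of the lines, 1 does not cross 0, that of Acads ILMN_2806676, and the widest belong to Angptl4 and Hadh ILMN_2590961.

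Among the regulators, the receptor Ppard (PPARδ, the subtype found in most tissues) had the largest difference. Its log2 level (ILMN_1221142) ran from 8.55 over a median of 9.72 to 10.27 in controls, and from 9.88 over 9.99 to 10.23 in SRI-tg10 islets. The SRI-tg10 arrays lay close together inside the upper part of the control range, and the lowest value was that of control replicate 5. The difference was 0.41 ± 0.22 (SE; limma adjusted p = 0.922), and 0.20 without control replicate 5. Ppargc1a, the coactivator, ran from 6.96 over 7.75 to 8.75 in controls and from 6.97 over 7.51 to 8.01 in SRI-tg10 islets, a difference of -0.28 ± 0.26 (SE), or -0.09 without control replicate 5, which held the highest value. Pparg, the subtype best known from fat cells, differed by -0.07 ± 0.14 (SE), or -0.01 without control replicate 5. Thus the regulators' groups overlapped, and control replicate 5 lay at an end of the range for all 3 of these genes, lowest for Ppard and highest for Pparg and Ppargc1a.

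In the carnitine shuttle, Cpt1a encodes the outer-membrane transferase whose block by malonyl-CoA limits entry. Its probe was dim, detected on 9 arrays, and ran from 4.87 over 5.56 to 6.09 in controls and from 5.22 over 5.81 to 6.17 in SRI-tg10 islets. The groups overlapped almost fully, with a difference of 0.19 ± 0.21 (SE), which was 0.05 without control replicate 5 and 0.29 without SRI-tg10 replicate 4. Cpt2, the inner-membrane transferase, was the steadiest member: its 3 probes differed by 0.03 to 0.09, and probe ILMN_2775122 had an SD of 0.09 over the 12 arrays, at the 0.5th percentile of kept probes. Slc25a20, the carnitine-acylcarnitine translocase, differed by -0.03 ± 0.11 and 0.03 ± 0.23 (SE) on its 2 probes. On the second of these, ILMN_3061070, the difference was 0.20 without control replicate 5. It was -0.0056 without SRI-tg10 replicate 4 and -0.07 without SRI-tg10 replicate 3.

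The acyl-CoA dehydrogenases start each round, with a preferred chain length for each enzyme. Acads, the short-chain enzyme, ran on ILMN_2806676 from 7.23 over 7.58 to 7.89 in controls and from 7.62 over 7.98 to 8.22 in SRI-tg10 islets. All 6 SRI-tg10 arrays lay above the control mean of 7.56, but 2 of them, replicates 1 and 6, lay below the highest control. The difference was 0.39 ± 0.14 (SE; limma unadjusted p = 0.0132, adjusted p = 0.922), and it kept its direction in all 22 other settings, from 0.25 to 0.47. The other kept Acads probe, detected on 6 arrays, differed by 0.28 ± 0.25 (SE). Acadm, the medium-chain enzyme, was lower by similar amounts on both its probes, -0.20 ± 0.14 and -0.18 ± 0.15 (SE). Acadvl, the very-long-chain enzyme, differed by 0.07 on both. Acadl, the long-chain enzyme, gave opposite signs, 0.22 ± 0.14 on one probe and -0.16 ± 0.20 (SE) on the other, each detected on all 12 arrays.

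**Figure D2:**
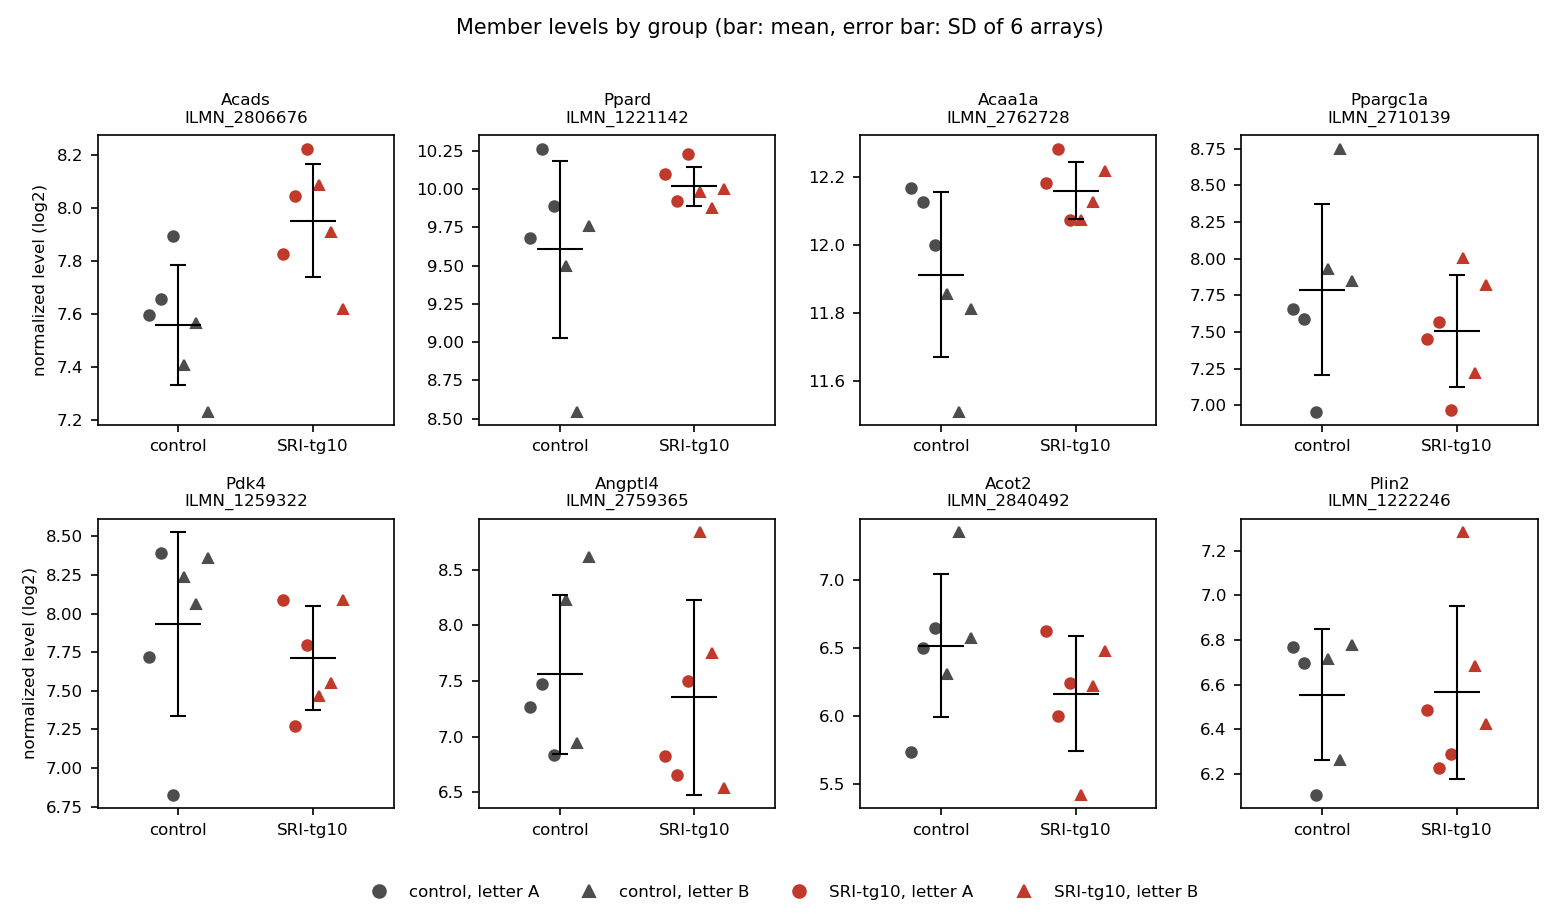
Normalized log2 level of 8 member probes per array in control (grey) and SRI-tg10 (red) islets, with circles for title letter A, triangles for letter B, horizontal bars for group means and error bars for the SD of 6 arrays. The groups overlap in every panel, and control replicate 5, a grey triangle, is lowest for Ppard at 8.55 and highest for Ppargc1a at 8.75.

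The later steps of the cycle showed no larger change. By their brightest probes, the 3 measured genes of this group were lower in SRI-tg10 islets by small amounts, from -0.17 to -0.11, but other probes of Hadh and Acaa2 pointed up. Hadh, the short-chain 3-hydroxyacyl-CoA dehydrogenase, which also restrains insulin release through glutamate dehydrogenase, had the smallest p of them. Its probe ILMN_2661733 ran from 6.69 over 6.87 to 7.26 in controls and from 6.09 over 6.86 to 7.10 in SRI-tg10 islets, a difference of -0.17 ± 0.17 (SE). The medians were nearly the same, and 1 low array, SRI-tg10 replicate 1, drew the mean down. Without that array the difference was -0.04. The other Hadh probe, ILMN_2590961, was higher by 0.26 ± 0.43 (SE), or 0.0021 without control replicate 4 and 0.44 without SRI-tg10 replicate 4. Hadhb, the thiolase subunit of the trifunctional protein, differed by -0.15 ± 0.21 (SE), or -0.05 without control replicate 5, its highest array. Acaa2, the mitochondrial thiolase, differed by -0.11 to 0.05 over its 4 probes, with 2 higher and 2 lower. Its direction turned on 2 arrays: the 4 differences ran from -0.09 to 0.19 without control replicate 5, with 3 higher, and from -0.28 to -0.07 without SRI-tg10 replicate 4, with 4 lower.

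Among the auxiliary and peroxisomal enzymes, Acaa1a, the peroxisomal thiolase, was bright and ran from 11.51 over 11.93 to 12.17 in controls and from 12.07 over 12.15 to 12.28 in SRI-tg10 islets. All SRI-tg10 arrays lay above the control mean. Replicates 1, 2 and 6 of SRI-tg10, at 12.18, 12.28 and 12.22, lay above the highest control, and the others inside the upper part of the control range. The difference was 0.25 ± 0.12 (SE; limma adjusted p = 0.922), or 0.17 without control replicate 5, the lowest control. Decr1, the dienoyl-CoA reductase needed for polyunsaturated chains, differed by 0.14 ± 0.18, and Eci1, the enoyl-CoA isomerase, by 0.08 ± 0.18 (SE). In both, control replicate 5 was the highest array, and without it the differences were 0.30 and 0.24. Ehhadh, the peroxisomal bifunctional enzyme and a classic PPARα target in liver, was detected on 7 arrays and differed by -0.03 ± 0.23 (SE), or 0.10 without control replicate 5 and -0.14 without SRI-tg10 replicate 4.

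Pdk4 and Pdk2 encode kinases that shut off pyruvate dehydrogenase and so favour fat as fuel. Pdk4 (ILMN_1259322) ran from 6.83 over 8.15 to 8.39 in controls and from 7.27 over 7.67 to 8.09 in SRI-tg10 islets, a difference of -0.22 ± 0.25 (SE). The lowest array was a control, replicate 3, and without it the difference was -0.44. Pdk2 differed by 0.17 ± 0.24 (SE). The 2 kept probes of Ucp2, a mitochondrial carrier first described as an uncoupling protein, differed by 0.04 ± 0.24 and -0.10 ± 0.25 (SE). Without control replicate 5 the Ucp2 differences were -0.05 and -0.22. Angptl4, a secreted inhibitor of lipoprotein lipase and a sensitive PPAR target in many tissues, spread most of the 4: it ran from 6.84 over 7.37 to 8.61 in controls and from 6.54 over 7.16 to 8.84 in SRI-tg10 islets. Each group held both low and high arrays, and the difference was -0.21 ± 0.40 (SE; limma adjusted p = 0.954), or -0.50 without SRI-tg10 replicate 4, the highest of all 12 arrays, and 0.0038 without control replicate 6.

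Of the thioesterases, which release free fatty acid from acyl-CoA, Acot2 acts in mitochondria and Acot1 in the cytosol. Acot2 ran from 5.73 over 6.53 to 7.36 in controls and from 5.42 over 6.23 to 6.62 in SRI-tg10 islets, a difference of -0.35 ± 0.25 (SE), or -0.19 without control replicate 5, the highest array, and -0.20 without SRI-tg10 replicate 4, the lowest. Acot1 differed by 0.14 ± 0.24 (SE), or -0.02 without control replicate 3, which was low, and 0.03 without SRI-tg10 replicate 4, which was high. Both encode close relatives whose probes may bind each other's transcripts, which was not tested. Fabp3, a cytosolic fatty acid binding protein, ran from 8.80 over 9.47 to 9.91 in controls and from 9.00 over 9.34 to 9.66 in SRI-tg10 islets, a difference of -0.10 ± 0.19 (SE), with the SRI-tg10 arrays inside the control range. Without control replicate 5, its highest array, the Fabp3 difference was 5e-04, and without control replicate 6, its lowest, -0.22. Plin2, which coats lipid droplets, differed by 0.01 ± 0.19 (SE). SRI-tg10 replicate 4 was again the highest array at 7.29, and without it the difference was -0.13. Without control replicate 5 the Plin2 difference was -0.05.

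Where a gene had several kept probes, they served as a check on the small differences. Of 9 such genes, 5 had probes of opposite sign: Slc25a20, Acadl, Hadh, Acaa2 and Ucp2. The probes of Cpt2, Acadm, Acads and Acadvl pointed the same way. In the authors' deposited table, which lists 46 of the member probes, 0 had an adjusted p under 0.05 (background 0.0188%) and 3 had an unadjusted p under 0.05 (6.52%; background 5.94%). These 3 probes belong to Acads, at 0.25 log2, Acaa2, at -0.33, and Angptl4, at -0.62, all from the authors' deposited table. In the fit used here the same probes differed by 0.39, -0.11 and -0.21. The other Acaa2 probes were at -0.025, -0.015 and -0.018 in the authors' deposited table. Of the 37 kept probes, 32 had the same sign in the authors' deposited table as in the fit used here, which comes from the same arrays.

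Other genes of the 2 pathways gave a similar picture. Of 38 measured genes among 52 other fatty acid oxidation names, 15 were higher and 23 lower in SRI-tg10 islets, with a median of -0.05, 0 past the threshold and 0 with an unadjusted p under 0.05 in limma. The smallest p-values were those of Pex11a, which acts in peroxisome division (-0.23 ± 0.13, SE), Etfdh, which passes electrons from the dehydrogenases to ubiquinone (-0.26 ± 0.21), Acad9, needed to assemble respiratory complex I (-0.17 ± 0.15), and Scp2, a peroxisomal thiolase and sterol carrier (-0.13 ± 0.12). Of 39 measured genes among 58 other PPAR pathway names, 21 were higher and 18 lower, with a median of 0.05, 0 past the threshold and 1 with an unadjusted p under 0.05 in limma. Esrra, an orphan nuclear receptor that works with PGC-1 coactivators on mitochondrial genes, had the smallest p, with 7.86 ± 0.27 in controls and 8.21 ± 0.11 in SRI-tg10 islets (SD, n = 6), a difference of 0.35 ± 0.13 (SE; limma adjusted p = 0.922). All 6 SRI-tg10 arrays lay above the control mean, and the groups overlapped between 8.04 and 8.25. Next came Ppargc1b, the coactivator PGC-1β (0.37 ± 0.20), Lpin1, a phosphatidate phosphatase and coactivator (-0.27 ± 0.15), and Rxrb, a retinoid X receptor (0.26 ± 0.15).

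Other cell types of the preparation bear on bulk levels, so their markers were read beside these results. List sizes count gene symbols, and some lists hold an older and a newer symbol of 1 gene, such as Plin and Plin1. Of 17 measured macrophage markers among 20, 17 were higher and 0 lower in SRI-tg10 islets, with a median of 0.24 and 0 past the threshold or with an unadjusted p under 0.05 in limma, and their summed normalized intensity per array ran from 6311 to 39069 in controls and from 8129 to 27738 in SRI-tg10 islets. Lyz1 (12.35 ± 1.27 and 12.82 ± 0.88, SD, n = 6) was the brightest. Of 11 measured lymphocyte markers among 16, 9 were higher and 2 lower, with a median of 0.36. Their summed intensities were 753 to 24319 in controls and 774 to 36179 in SRI-tg10 islets. The 2 lower markers were the brightest, Igh-6 (-0.83 ± 1.11, SE) and Cd79b (-0.05 ± 0.96), and the next, Cd79a, was higher (0.69 ± 0.56). For both lists the spread among mice of a group was wider than the difference between groups. Of 11 adipocyte marker symbols 2 were measured, Thrsp and Adrb3, both lower, with a median of -0.37. Fabp4, Plin and Retn were detected on 0 arrays, Adipoq and Car3 on 1, Cidec on 2, Lep on 3 and Cfd on 5. Of 14 measured endothelial markers 6 were higher and 8 lower, of 13 fibroblast and stellate markers 8 and 5, of 23 acinar markers 17 and 6, and of 12 beta cell markers 5 and 7, with 0 past the threshold in each. At an unadjusted p under 0.05 in limma there were 2 beta cell, 1 endothelial and 1 fibroblast and stellate marker and 0 of the other lists. The background over all kept probes was 4.26%. These markers were G6pc2 (-0.45 ± 0.14, SE), Iapp (-0.37 ± 0.15), Eltd1 (-0.43 ± 0.15) and Rgs5 (-0.45 ± 0.20), each lower in SRI-tg10 islets. The part of these cells in the members' levels was not tested.

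The title letters hold the groups in equal numbers, so the members were also compared between them. In a fit with both terms, 1 of 37 member probes passed the threshold between letters (background 0.0928%), and it was a probe of Hadh. On ILMN_2590961 the log2 level ran from 7.18 over 7.41 to 7.72 on the 6 letter A arrays and from 5.28 over 5.98 to 6.57 on the 6 letter B arrays. Every letter A array lay above every letter B array, in controls and in SRI-tg10 islets alike, and 1 of 37 member probes was free of overlap in this way (background 1.92%). The difference, B minus A, was -1.46 ± 0.17 (SE; limma adjusted p = 0.00857), 2.75-fold. Without control replicate 5 or SRI-tg10 replicate 4 the probe also passed, as it did in each of the 18 settings that kept it. Its size depended on the background correction: without that correction the difference was -0.66 (limma adjusted p = 0.00849), and in the other settings that kept the probe it was -1.57 to -1.34.

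The other Hadh probe, ILMN_2661733, did not show this shift. It ran from 6.09 over 6.79 to 7.21 under letter A and from 6.68 over 6.97 to 7.26 under letter B, a difference of 0.22 ± 0.17 (SE; limma adjusted p = 0.508). The letters overlapped, and the estimate pointed the other way. Probe ILMN_2590961 was detected on 11 of 12 arrays, all but control replicate 4, which had its lowest value. The files give no probe sequences, so where in the transcript the probes lie was not analysed here.

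**Figure D3:**
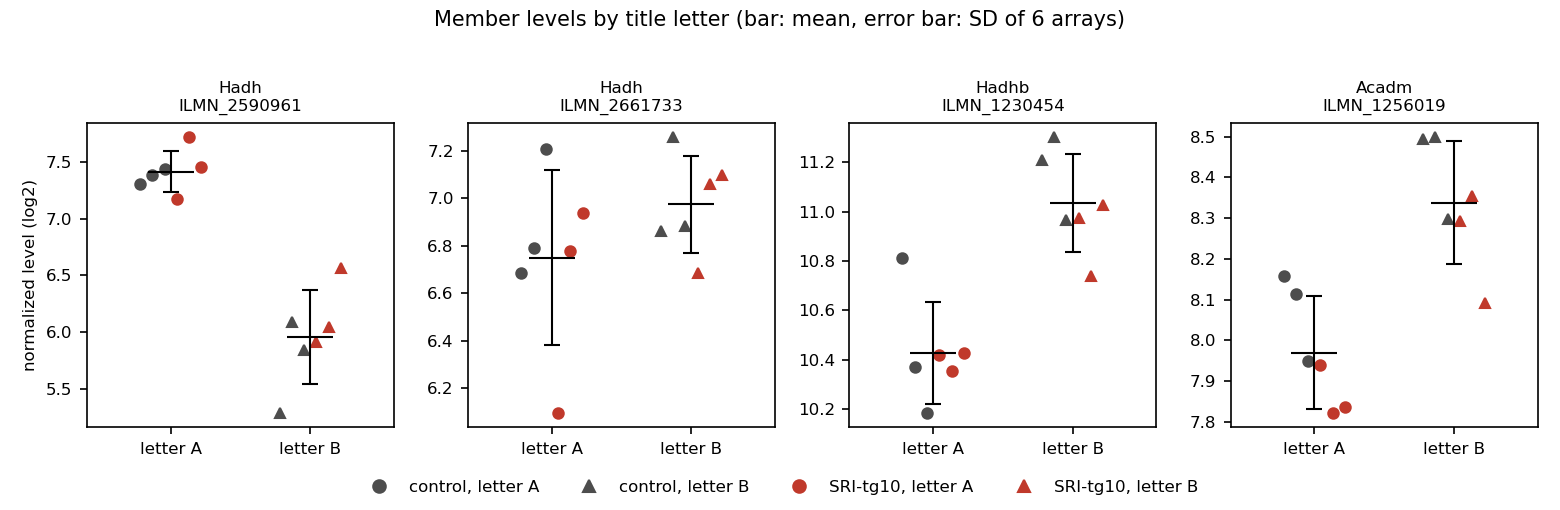
Normalized log2 level of 4 member probes by title letter, 6 arrays each, in control (grey) and SRI-tg10 (red) islets, with horizontal bars for means and error bars for SD. The letters are apart for Hadh ILMN_2590961 and overlap for the other Hadh probe, for Hadhb and for Acadm.

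At an unadjusted p under 0.05 there were 5 of 37 member probes between letters (13.5%; background 16.8%), a share below the background. Besides Hadh, the others were higher under letter B. Hadhb ran from 10.18 over 10.40 to 10.81 under letter A and from 10.74 over 11.00 to 11.30 under letter B. Only control replicate 1 of letter A reached into the letter B range, and the difference was 0.61 ± 0.13 (SE; limma adjusted p = 0.108). Acadm differed by 0.37 ± 0.10 and 0.34 ± 0.12 (SE) on its 2 probes, with adjusted p-values of 0.143 and 0.203 in limma. On ILMN_1256019, Acadm ran from 7.82 over 7.94 to 8.16 under letter A and from 8.09 over 8.33 to 8.50 under letter B. On ILMN_2810473 it ran from 9.88 over 10.08 to 10.28 under letter A and from 10.03 over 10.48 to 10.68 under letter B. Both probes thus overlapped between letters, with the medians apart by more than either letter's SD. Ppargc1a ran from 6.96 over 7.51 to 7.66 under letter A and from 7.22 over 7.89 to 8.75 under letter B, a difference of 0.56 ± 0.22 (SE; limma adjusted p = 0.232). Over all 37 probes, 27 were higher and 10 lower under letter B, with a median of 0.10 beside -0.03 over all kept probes. Control replicate 5, a letter B array, was the highest array for 17 of these 37 probes, Ppargc1a among them. The split without this array and the split over all kept probes are not given here.

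The group difference was then tested for a change between letters. With limma, 0 of 37 member probes had an adjusted p under 0.05 for this interaction (background 0.0%) and 0 had an unadjusted p under 0.05 (background 2.33%). Within the letters, the Acads probe ILMN_2806676 differed by 0.32 ± 0.17 (SE) under letter A and 0.47 ± 0.20 under letter B, and Acot2 by -0.0029 ± 0.28 and -0.71 ± 0.37, with 3 mice of each group per letter.

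**Figure D4:**
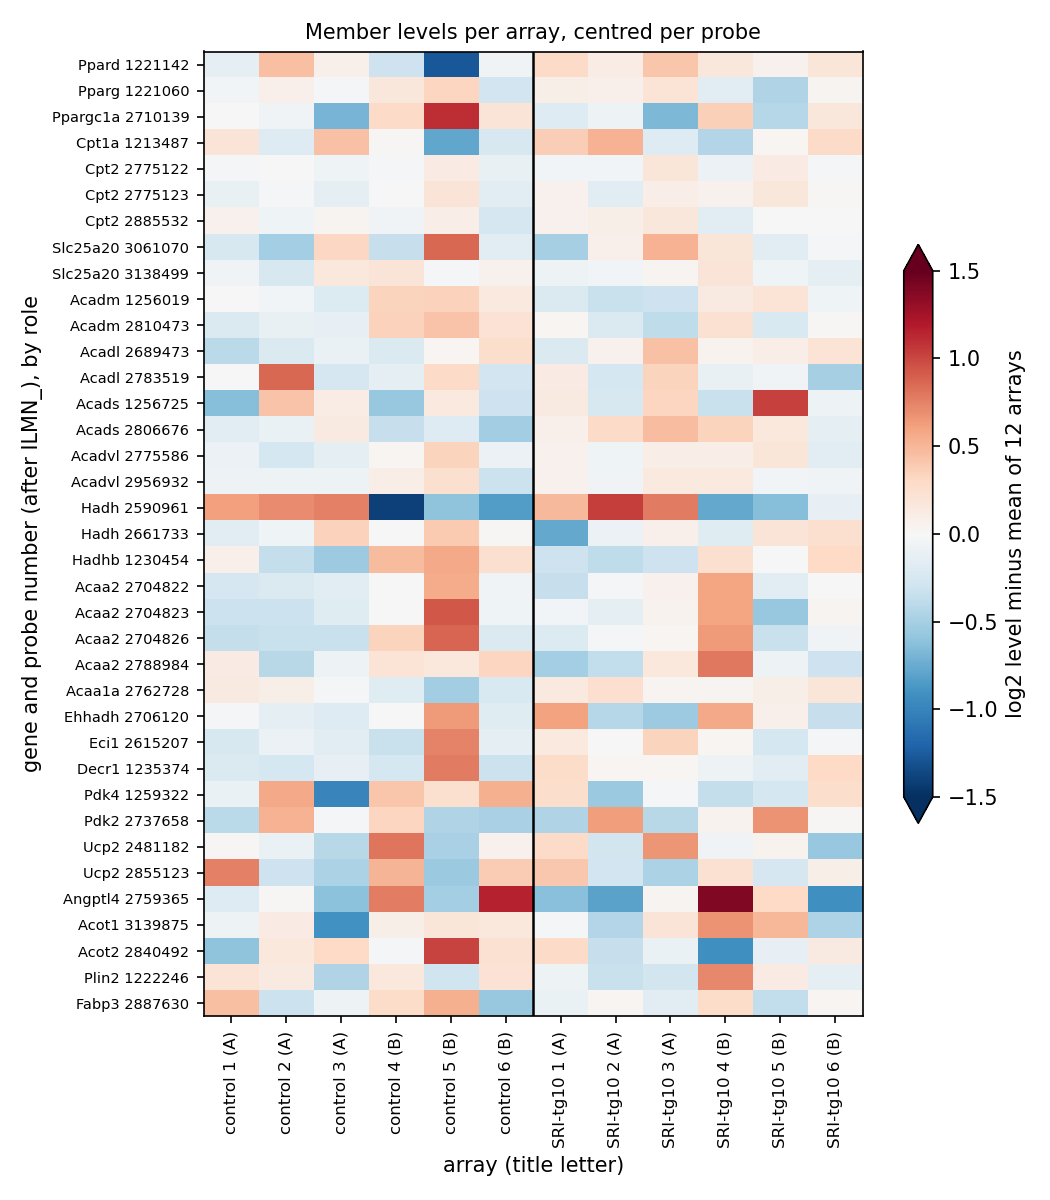
Log2 level of the 37 kept member probes on each of the 12 arrays, minus the probe's mean over all arrays (red higher, blue lower, colours limited at 1.5), in order of role, with the title letter in brackets and a line between groups. Hadh ILMN_2590961 changes colour with the letter in both groups, and control replicate 5 is the highest array for 17 of 37 probes.

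The members also varied among mice of the same group. The SD over 12 arrays was 0.82 for Hadh ILMN_2590961 and 0.77 for Angptl4, at the 97.2th and 96.6th percentiles of kept probes, and its median over member probes was 0.36, beside 0.32 over all kept probes. Control replicate 5 held the highest value of 17 of 37 member probes (45.9%), and of 20.3% of all kept probes. These included probes of Acadm, Acadvl, Hadhb, Eci1 and Decr1, while Ppard, Cpt1a, Acaa1a and a probe of Ucp2 had their lowest value there (10.8% of member probes, beside 23.6% of all kept probes). This array had fewer detected probes than any other, 16271, and the part of that in its member levels was not tested.

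Angptl4, Plin2, Pdk4, Cpt1a, Ucp2 and Acot2 are known to respond to fatty acids or PPAR ligands in several tissues, so their levels were compared across the 12 mice in 15 pairs. Of these, 1 passed the threshold by r after adjustment over the 15, and none passed by rho. Angptl4 and Plin2 varied together, with r = 0.807 (p = 0.00087, adjusted p = 0.0131, permutation test) and rho = 0.734 (p = 0.00856, adjusted p = 0.0755, permutation test). SRI-tg10 replicate 4 was the highest array for both genes, with control replicates 6 and 4 next for Angptl4. Without SRI-tg10 replicate 4 and control replicate 6, the 2 arrays farthest from the Angptl4 median, r was 0.637 (p = 0.0485, adjusted p = 0.145, permutation test), so the pair no longer passed. Leaving out the farthest arrays also leaves fewer mice and a narrower range, so it cannot show that the call rests on those arrays. Within letter A r was 0.536 and within letter B 0.866, each over 6 mice and neither past the threshold. The macrophage marker score, a mean of centred log2 levels, was 0.80 on SRI-tg10 replicate 4, 0.97 on control replicate 6 and -0.62 on control replicate 4. In the same order, the lymphocyte score was 1.95, 1.43 and -1.72. The fibroblast and stellate score was 0.48, 0.60 and 0.17, and the endothelial score 0.31, 0.18 and 0.09. Scores of the other lists were -0.27, -0.13 and 0.08 (beta cell), 0.05, -0.01 and -0.04 (acinar) and -0.62, 0.19 and 0.10 (adipocyte). High scores were not confined to these arrays. The lymphocyte and macrophage scores were 2.18 and 0.47 on SRI-tg10 replicate 5 and 1.02 and 0.67 on control replicate 2. On SRI-tg10 replicate 3 they were 0.60 and 0.64, and on the arrays not named here both were negative. The part of these cells in the relation was not tested.

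The other pairs did not pass. Plin2 and Ucp2 had r = 0.601 (p = 0.0362) and Plin2 and Acot2 r = -0.613 (p = 0.0344), each with an adjusted p of 0.181 in the permutation test. Cpt1a and Angptl4 had r = -0.514 (p = 0.0887, adjusted p = 0.333, permutation test) over 12 mice, and without control replicate 5 and SRI-tg10 replicate 2 r was -0.837 (p = 0.00302, adjusted p = 0.0453, permutation test over 10 mice). By rank, rho over 12 mice was 0.699 for Plin2 and Ucp2 and -0.692 for Cpt1a and Angptl4. Both had an adjusted p of 0.0755 in the permutation test, the same as Angptl4 and Plin2. For Plin2 and Acot2 rho was -0.434 (adjusted p = 0.427, permutation test). Over the 15 pairs r ran from -0.613 to 0.807, with 8 positive and a median of 0.192.

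**Figure D5:**
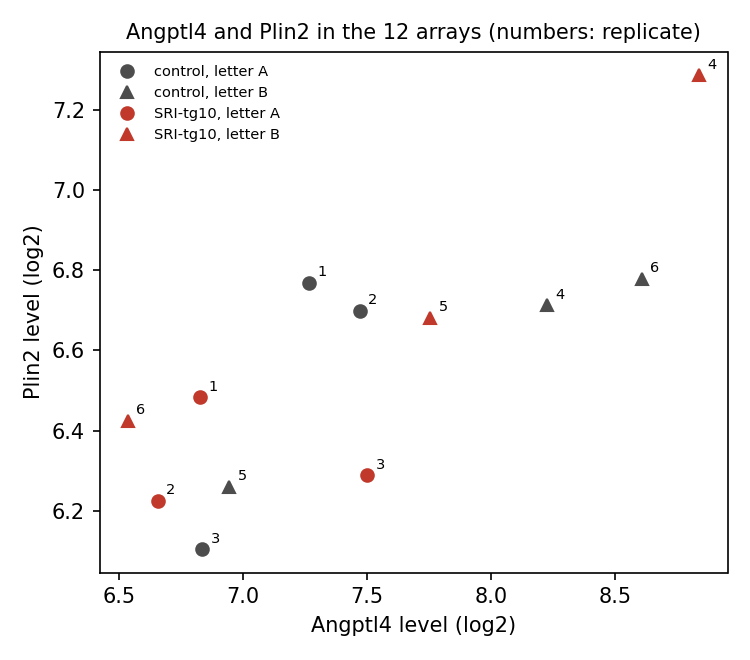
Log2 level of Plin2 against that of Angptl4 in the 12 arrays, with control mice in grey, SRI-tg10 mice in red, circles for title letter A, triangles for letter B and replicate numbers beside the points. SRI-tg10 replicate 4 lies alone at the upper right, at 8.84 for Angptl4 and 7.29 for Plin2.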

How the data were processed

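Biotinylated cRNA was made from total islet RNA of 12 mice for Illumina bead arrays, per the labels. The submitters' processing notes name GenomeStudio without a version. In the deposited data, the main table holds mean bead intensities on the linear scale, which from their values carry no background subtraction and no normalization across arrays, beside detection p-values, per the file headers. A comparison table deposited by the authors gives a log2 fold change, a t score and p-values per probe, per the file headers. Its model is not stated, and its direction was read from Sri.

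Each sample's group and title letter came from the labels, and replicate numbers follow accession order and pair no samples. Intensities were converted with limma 3.58.1 (R 4.3.3) by its neqc function, which takes the background from the detection p-values, adds an offset of 16, normalizes by quantiles and takes log2, and probes detected at p under 0.05 on at least 6 of 12 arrays were kept (18315 probes, 12647 gene names). Gene symbols came from the files. Groups and letters were compared with limma (lmFit and eBayes), with Benjamini-Hochberg adjustment over all 18315 probes and a threshold of 0.05. Errors are moderated standard errors (SE) or standard deviations (SD). Relations used two-sided permutation tests with 100000 resamples, and exact ones within a letter. Fits were tested on simulated data. The number of arrays limits the precision.

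Every member is accounted for with all its kept probes, and the other member probes are counted. Values per array are given for members with an unadjusted p under 0.05 between groups or letters and for the smallest p in each role. Up to 4 genes are named from each pathway list. From the cell type lists the 3 brightest genes were eligible, and not all are printed. Cell type markers with an unadjusted p under 0.05 between groups are named as well. Angptl4, Plin2, and the probes in the plots of levels and of pairs that this rule does not name were added after values were seen. The members and lists were chosen with earlier results of these data known.

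In the deposited matrix of processed log2 values, 10 of 12 columns tracked another array's intensities most closely, 6 of them an array of the other group. The matrix was therefore not used, and its scale and centring were not examined further.

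Alternatives were another normalization, other filters, array weights, trend and robust eBayes, the letter as a covariate, each letter alone and leaving out each array in turn.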

Additional observations from a re-analysis of the deposited data

Results flagged for a closer look

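Within each group of 6 arrays, Dixon's test at the 95% level was applied to every kept member probe, and 6 of 74 groups (8.11%) had an array far from the others, beside 8.1% of 36630 groups over all kept probes. Chance alone gives about 1 in 20, and probes of 1 gene are not independent. Of the 6, 5 came from control replicate 5, which was high, and over all kept probes 47% came from that array. Its Acaa2 level was 8.99 on ILMN_2704822, against 8.18 to 8.45 on the other control arrays, and 9.06 on ILMN_2704823, against 7.80 to 8.13. For Decr1 it was 7.03, against 5.93 to 6.13, and for Eci1 10.17, against 9.09 to 9.34. The peroxisomal enzyme Ehhadh was at 6.06 there, against 5.22 to 5.41. The remaining case was Acot1 on control replicate 3, which was low at 7.08, against 7.91 to 8.17. Control replicate 5 also had the fewest detected probes, 16271, and the part of array quality in these values was not tested.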

How the results depend on the processing

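In the group comparison, 0 member probes passed the threshold in any of 22 other settings (array left out, normalization, filter, weights, eBayes options, letter as a covariate or alone). Of the 37 probes, 18 kept their sign throughout and 19, all at most 0.22 in size, changed it somewhere. Over all kept probes, the count past the threshold was 4, and 0 with letter B alone. Between letters, 26 of 37 member probes kept their sign and 11 did not, the largest of these at 0.11. The count of members past the threshold was 0 among probes detected on all 12 arrays, since that filter drops the Hadh probe, and 2 with trend and robust eBayes, where Hadhb joined it (adjusted p = 0.0445 in limma). The count over all probes, 17, became 7 with 75th percentile scaling, 9 among probes detected on all 12 arrays, 38 with array weights, 37 with trend and robust eBayes, and 4 to 19 with an array left out, and the cause was not tested. The Sri difference was 4.305 with letter B alone, no longer past the threshold, with 3 mice a group. The relations past the threshold by r numbered 0 in each letter alone and 1 without the 2 farthest arrays, then another pair, Cpt1a and Angptl4. No paired analysis was possible because replicate numbers follow accession order only. The planned use of the processed matrix was not run, since most columns tracked other arrays, and Hadha with Hadhb was not computed, since Hadha was not kept. Dim members, such as Cpt1a, Ucp2 and Ehhadh, are limited by their signal over background.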
